A study of Homo sapiens with 60 samples.

Results

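The genes described here were 9 non-coding hosts of small nucleolar RNAs (snoRNAs): GAS5, ZFAS1, SNHG1, SNHG5, SNHG8, SNHG12, SNHG15, SNHG16, and SNHG29. They were chosen by gene name from a table of 62703 annotated genes, with earlier results of these data known. All 9 were among the 12341 genes with enough counts to be tested. They were measured by 3′ mRNA sequencing (QuantSeq) in 1321N1 cells, a human line derived from a brain astrocytoma, in 60 libraries. Cells received 2.55 µM sodium metaarsenite (arsenic), 2.3 µM cadmium chloride (cadmium), or 20 µM mercury chloride (mercury), or were left non-treated, and were lysed after 1.5, 3, 6, 12, or 24 h, which gave 20 groups of 3 libraries. The doses were picked to kill an equal, small share of cells in a longer treatment, so the molar doses of the metals differed. The labels call the triplicates technical, so the p-values measure the spread between these libraries and may not cover that between independent cultures.

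A snoRNA host gene is transcribed and spliced like a protein-coding gene, but its product lies in the introns: once the intron is removed, its ends are trimmed to leave the snoRNA. Box C/D snoRNAs guide methylation of ribosomal RNA, and box H/ACA snoRNAs guide its pseudouridylation. The spliced exons of a non-coding host carry short open reading frames that ribosomes can enter, and a stop codon far ahead of the last exon junction marks an RNA for nonsense-mediated decay, a degradation pathway that needs translation. For this reason the spliced RNA of several hosts, of which GAS5 is the classical case, accumulates when translation or the decay factor UPF1 is blocked, and their level is used as a readout of that pathway. The question asked of these data was whether the spliced host RNAs changed together in cells under metal stress.

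The libraries held between 2215276 and 4404609 counts on genes (median 3291417). Of the 12 astrocyte markers, VIM (median 4477 CPM, counts scaled to the TMM-normalized library size), CD44 (393 CPM), SOX9 (78.0 CPM), GJA1 (20.4 CPM), and NES (3.40 CPM) were present in all libraries. GFAP had at most 3 counts in any library, S100B 1, SLC1A3 13, SLC1A2 5, and ALDOC 8, and AQP4 and ALDH1L1 were listed at 0. With arsenic, SOX9 fell at 12 h (LFC -0.65, adjusted p = 0.00211 from edgeR) and 24 h (-0.98, 8.39e-08), and CD44 at 24 h (-0.46, 1.61e-06). At 12 h of cadmium, GJA1 (0.70, 0.0265), SOX9 (0.55, 0.00551), and CD44 (0.37, 0.000235) rose, and NES fell at 24 h of mercury (-1.62, 0.0275). NES had at most 25 counts in a library and a lowest level of 0.330 CPM, below the level of 3 counts. Its call was not refitted with libraries left out. Of the 6 neuronal markers, RBFOX3, TUBB3, and STMN2 had at most 3 counts in any library, SNAP25 at most 7, SYP at most 12, and MAP2 at most 22. Their summed level was highest at 24 h of mercury (5.96 to 9.23 CPM, against 1.23 to 5.39 CPM in non-treated cells), where MAP2 rose (LFC 1.74, adjusted p = 0.0315 from edgeR; not called without either of mercury 24 h replicates 2 and 3 or non-treated 24 h replicates 2 and 3, with LFCs from 1.44 to 1.71 and adjusted p up to 0.139, nor with no filter on low counts, with an adjusted p of 0.135). The part of MAP2-expressing cells in the mercury results at 24 h was not tested. Of the 5 microglial and blood markers, AIF1 and P2RY12 were listed at 0, CX3CR1 had at most 1 count, PTPRC at most 7, and CD68 at most 9. Mitochondrial genes took between 1.35% and 7.94% of the counts, and the libraries with the lowest shares were cadmium 6 h replicate 1 (1.35%) and arsenic 3 h replicate 2 (1.91%).

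All 9 hosts are annotated as long non-coding RNAs. Of the 24 snoRNA genes that the table lists inside them on the same strand, box H/ACA genes (SNORA) lie in SNHG8, SNHG12, and SNHG15, and box C/D genes (SNORD) lie in ZFAS1, SNHG1, SNHG5, SNHG12, SNHG16, and SNHG29. GAS5 is known as a host of box C/D snoRNAs. The canonical transcripts of the 9 hosts have 3 to 12 exons. In all 9, the stop codon of the first open reading frame (3 to 57 codons) lies at least 55 bases ahead of the last exon junction, as it does in 86.6% of 8680 other long non-coding transcripts with at least 3 exons.

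Hosts of snoRNAs are also known for a tract of pyrimidines at their transcription start (a terminal oligopyrimidine tract), which in mRNAs ties translation to growth signals. The 30 bases around the RefSeq start (GRCh38.p14, 15 on each side) are given below for the 8 hosts in the promoter table, 5′ to 3′ on the strand of the gene, because the start is a sequence feature that the choice of genes did not use. Capitals mark a C followed by at least 4 bases that are C or T. The starts compared were as follows.
SNHG8, chr4:118278747-118278776, plus strand: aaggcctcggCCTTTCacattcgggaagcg
SNHG12, chr1:28581859-28581888, minus strand: tcgcggcttcagcgCCCTTTCTCCCCgccg
ZFAS1, chr20:49278627-49278656, plus strand: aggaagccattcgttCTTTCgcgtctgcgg
GAS5, chr1:173869031-173869060, minus strand: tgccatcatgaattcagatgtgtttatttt
SNHG1, chr11:62855871-62855900, minus strand: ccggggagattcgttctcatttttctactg
SNHG5, chr6:85678719-85678748, minus strand: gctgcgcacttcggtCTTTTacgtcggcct
SNHG16, chr17:76557749-76557778, plus strand: cgcaggggcggtctcgcgttCTTTTCgagg
SNHG29, chr17:16438972-16439001, plus strand: CCCCTCCTTTTgtgaggattgggatattcc

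A run of this kind was found in 6 of these 8 windows, against 39.0% of the windows of all 35116 promoters in the table. It was counted anywhere in the window, so the count is not one of terminal oligopyrimidine tracts. The run of SNHG29 lies wholly before the start, and that of SNHG16 begins after it. The GAS5 window lies outside the gene as the count table's annotation places it (chromosome 1, 173858559 to 173868882), so it does not show the start of the counted transcripts. On both strands of the 300 bases from 250 before to 50 after the start, TGATGNAA, a sequence of the kind bound by ATF4 with its partners in the stress response, occurred in 0 of 8 promoters (3.62% of all), and CACGTG, an E-box of the kind bound by MYC, occurred in 0 of 8 (7.26% of all). These matches describe letters in a window, not sites that are used.

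ZFAS1 (ENSG00000177410.13, chromosome 20, 49278178 to 49299600) had the highest level, with a median of 567 CPM over the 60 libraries and 1273 to 2608 counts in a library. SNHG29 (ENSG00000175061.20, chromosome 17, 16438767 to 16480249) followed with 434 CPM, SNHG16 (ENSG00000163597.17, chromosome 17, 76557727 to 76670985) with 228 CPM, and GAS5 (ENSG00000234741.10) with 136 CPM. SNHG12 (ENSG00000197989.15, chromosome 1, 28578538 to 28583132), SNHG5 (ENSG00000203875.13, chromosome 6, 85650491 to 85678932), SNHG1 (ENSG00000255717.9, chromosome 11, 62851978 to 62855953), and SNHG8 (ENSG00000269893.10, chromosome 4, 118278703 to 118285316) had medians between 75.1 and 92.8 CPM, and the ranges of these 4 genes over the libraries overlapped. SNHG15 (ENSG00000232956.10, chromosome 7, 44983019 to 44986961) was lowest, with a median of 17.2 CPM and only 25 to 97 counts in a library. With 3′ sequencing each transcript gives reads from its end, so these levels do not scale with gene length. The spread between libraries of a group followed the counts: the median coefficient of variation was 4.03% for ZFAS1, 4.69% for SNHG29, and 18.9% for SNHG15. Of the 50-base stretches near the 3′ ends of their transcripts, 9.64% for SNHG5, 4.12% for SNHG12, and at most 1.83% for the other hosts are found in a further gene. All coordinates are of GRCh38.

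**Figure D1:**
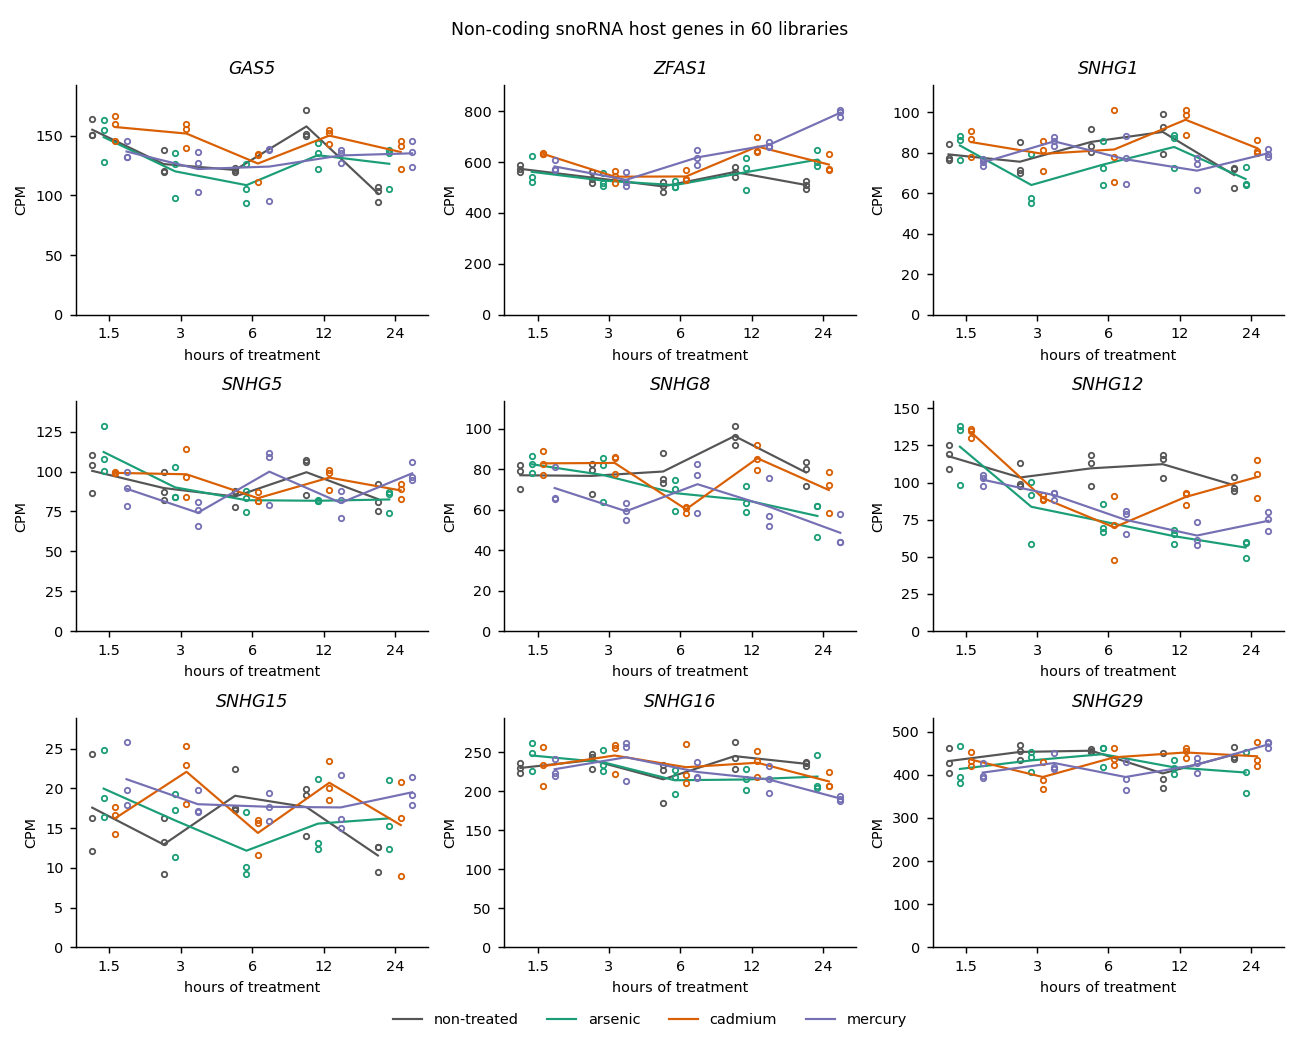
Levels of the 9 hosts in CPM (vertical axis, starting at 0 in each panel) by hours of treatment (horizontal axis, categories); each circle is a library and the lines join the means of 3 libraries for non-treated, arsenic, cadmium, and mercury. SNHG12 lies lower in each metal than in non-treated cells at 6 h. With arsenic and mercury, SNHG12 and SNHG8 lie lower at 12 and 24 h. ZFAS1 is highest in mercury at 24 h with 778 to 806 CPM, and GAS5 is lowest in non-treated cells at 24 h with 94.7 to 107 CPM.

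The host RNAs did not move as a group. Each of the 9 hosts was compared with non-treated cells for 3 metals at 5 times, and 20 of these 135 comparisons passed an adjusted p of 0.05 in edgeR's quasi-likelihood test with Benjamini-Hochberg adjustment over all genes; the metal lowered the level in 12 and raised it in 8. None of these log2 fold changes (LFC) exceeded 1 in size. Arsenic had 6 such effects in 45 comparisons (3.93% of all its gene tests were called), cadmium 3 (2.51%), and mercury 11 (10.6%). The 3 metals share the non-treated libraries of each time point, so their values stand side by side and are not independent of each other. Because RNA was taken from whole cultures, less host RNA per cell and fewer cells that contain it cannot be told apart.

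At 1.5 and 3 h, edgeR called 0 of the 9 hosts in any metal, and so did DESeq2, with shares of all genes called by edgeR at 1.5 h of 0.0162% for arsenic, 0% for cadmium, and 0.575% for mercury and at 3 h of 0.219%, 0.194%, and 1.52%. At an unadjusted p of 0.05, 1 host passed with 3 h of arsenic, 3 with 3 h of cadmium, and 2 with 3 h of mercury. At 6 h, arsenic gave 1 call (0.997% of all genes), cadmium 1 (2.09%), and mercury 2 (7.58%). At 12 h, the counts were 2 for arsenic (4.15%), 1 for cadmium (8.04%), and 3 for mercury (15.8%). At 24 h, arsenic had 3 (14.3%), cadmium had 1 (2.24%), and mercury had 6 (27.6%). Over the 9 hosts at 24 h, arsenic gave a median LFC of -0.04, cadmium of 0.09, and mercury of 0.21, against 0.00041, -0.0068, and -0.021 for all genes.

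**Figure D2:**
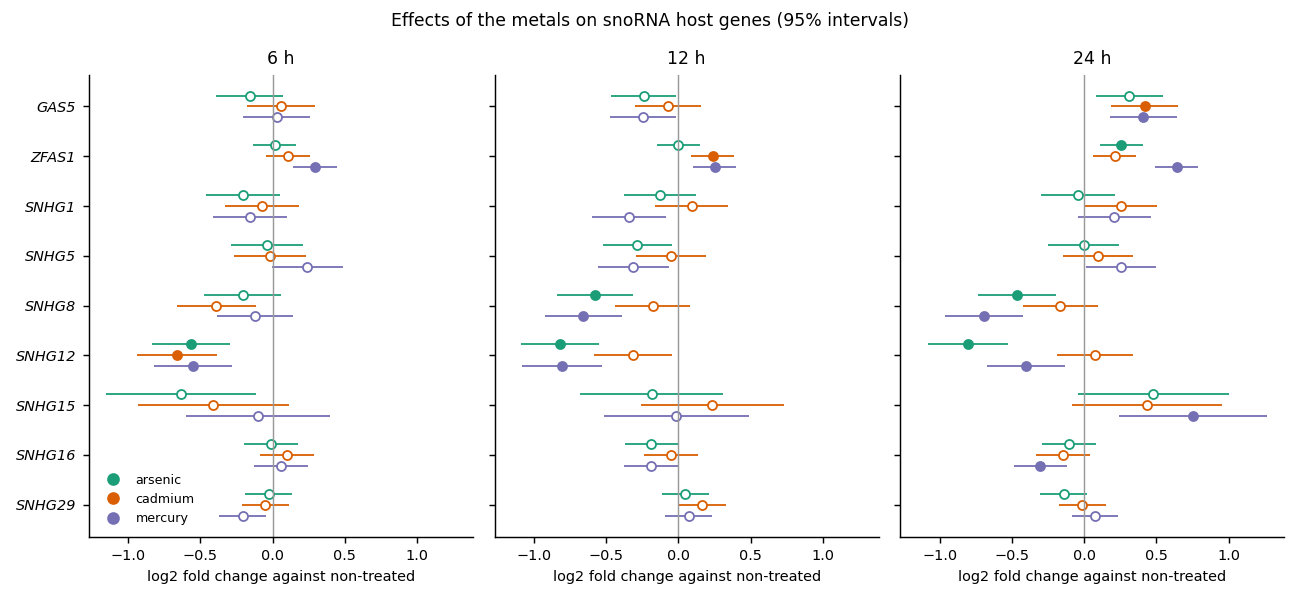
LFC of each host against non-treated cells at 6, 12, and 24 h (horizontal axis) with the 95% interval of the fit, not adjusted for multiple tests; filled circles passed the adjusted p of 0.05 and open circles did not, and colours mark arsenic, cadmium, and mercury. At 24 h of mercury, ZFAS1 (0.64), GAS5 (0.41), and SNHG15 (0.75) lie to the right of 0 and SNHG8 (-0.69), SNHG12 (-0.40), and SNHG16 (-0.30) to the left.

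Among the hosts of box H/ACA snoRNAs, SNHG12 fell in 7 of its 15 comparisons with non-treated cells, more than any other of the 9 genes. At 12 h its 3 non-treated libraries had 118, 103, and 116 CPM. With arsenic they had 67.7, 65.4, and 58.5 CPM, and with mercury 61.2, 73.6, and 58.1 CPM. All arsenic and mercury libraries thus lay below all non-treated ones, with an LFC of -0.82 for arsenic (SE, the standard error, 0.14, adjusted p = 6.38e-06 in edgeR) and -0.80 for mercury (SE 0.14, adjusted p = 4.13e-06 in edgeR). The cadmium libraries, at 85.1, 92.6, and 93.2 CPM, also lay below the non-treated range, but their LFC of -0.31 did not pass (adjusted p = 0.147 from edgeR).

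At 24 h the non-treated libraries of SNHG12 had 96.3, 103.9, and 94.4 CPM, and the 3 metals differed in level. The arsenic libraries were lowest, at 59.4, 49.4, and 59.9 CPM (LFC -0.81, SE 0.14, adjusted p = 5.51e-06 in edgeR). The mercury libraries, at 75.7, 67.1, and 80.1 CPM, lay between arsenic and non-treated without overlap with either (LFC -0.40, SE 0.14, adjusted p = 0.0187 in edgeR). The cadmium libraries, at 89.8, 106.0, and 115.4 CPM, spanned the non-treated range, with an LFC of 0.07. The mercury call at 24 h was lost without mercury 24 h replicate 2 (LFC -0.33, adjusted p = 0.109) or without non-treated 24 h replicate 2 (LFC -0.36, adjusted p = 0.0761).

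SNHG12 had also fallen at 6 h in all 3 metals, when non-treated libraries had 118, 113, and 97.4 CPM. The arsenic libraries had 69.1, 85.8, and 66.5 CPM (LFC -0.56, adjusted p = 0.013 from edgeR), the cadmium libraries 47.5, 90.7, and 71.3 CPM (LFC -0.66, adjusted p = 0.00107), and the mercury libraries 78.7, 80.8, and 65.1 CPM (LFC -0.55, adjusted p = 0.00349). No treated library overlapped the non-treated ones. The lowest cadmium value came from replicate 1, the library with 1.35% of mitochondrial counts, and without it the LFC was -0.43 (adjusted p = 0.109). The part of this library's composition in the result was not tested. At 3 h the arsenic library with 1.91% of mitochondrial counts was also the lowest for SNHG12, at 58.5 CPM against 91.9 and 100.7 CPM in the other arsenic libraries, and no metal passed at that time. The arsenic call at 6 h was lost when any of 4 of the 6 libraries was dropped, with LFCs from -0.49 (adjusted p = 0.147, without arsenic 6 h replicate 3) to -0.54 (adjusted p = 0.0726, without non-treated 6 h replicate 2); the others were those without arsenic 6 h replicate 1 (-0.52) and non-treated 6 h replicate 1 (-0.51).

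SNHG8, the host of SNORA24, fell at 12 and 24 h of arsenic and of mercury. At 12 h the non-treated libraries had 101.5, 92.1, and 95.9 CPM, the highest group mean of this gene. The arsenic libraries had 63.3, 72.0, and 59.03 CPM (LFC -0.58, SE 0.13, adjusted p = 0.00186 in edgeR), and the mercury libraries 75.5, 57.2, and 52.0 CPM (LFC -0.66, SE 0.13, adjusted p = 0.00011 in edgeR). The arsenic and mercury libraries overlapped each other but not the non-treated ones.

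At 24 h SNHG8 had 83.7, 80.0, and 71.7 CPM in non-treated cells and was lowest in mercury, with 44.3, 43.9, and 57.7 CPM (LFC -0.69, SE 0.14, adjusted p = 3.27e-05 in edgeR). With arsenic, 62.1, 62.1, and 46.7 CPM gave an LFC of -0.46 (SE 0.13, adjusted p = 0.0102 in edgeR). This arsenic call rested on the lowest arsenic and the highest non-treated library: without arsenic 24 h replicate 3 the LFC was -0.34 (adjusted p = 0.127), and without non-treated 24 h replicate 1 it was -0.41 (adjusted p = 0.0643). In cadmium, SNHG8 did not pass at any time point, with LFCs from -0.39 at 6 h to 0.12 at 3 h.

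SNHG15, the host of SNORA9 and the least abundant of the 9 genes, went the other way. At 24 h of mercury it had 19.1, 17.9, and 21.4 CPM, above the non-treated libraries at 12.6, 12.6, and 9.50 CPM (LFC 0.75, SE 0.26, adjusted p = 0.0208 in edgeR). The call was lost without mercury 24 h replicate 3 (LFC 0.68, adjusted p = 0.0742) or without non-treated 24 h replicate 3 (LFC 0.63, adjusted p = 0.0947). The non-treated mean at 24 h, 11.6 CPM, was the lowest of the 20 groups for this gene, and the mercury mean of 19.5 CPM lay close to that of non-treated cells at 6 h, 19.1 CPM. The arsenic and cadmium LFCs at 24 h were 0.48 (adjusted p = 0.238) and 0.43 (adjusted p = 0.529), with libraries that overlapped the non-treated ones.

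Of the hosts of box C/D snoRNAs, ZFAS1, the host of the SNORD12 family, rose in 5 of its 15 comparisons. At 24 h of mercury its libraries had 778, 806, and 796 CPM against 495, 525, and 509 CPM in non-treated cells. These are the 3 highest values of ZFAS1 in the series, and the LFC of 0.64 had the smallest adjusted p of any host (SE 0.08, adjusted p = 2.14e-11 in edgeR). ZFAS1 was also higher with mercury at 6 h (616, 649, and 589 CPM against 521, 507, and 484 CPM, LFC 0.29, adjusted p = 0.00498 from edgeR) and at 12 h (677, 659, and 665 CPM against 563, 539.6, and 579.6 CPM, LFC 0.25, adjusted p = 0.0125 from edgeR). Without non-treated 12 h replicate 2, the 12 h value was 0.22 (adjusted p = 0.0621), and this call was also lost with no filter on low counts (adjusted p = 0.0737).

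With arsenic, ZFAS1 libraries overlapped the non-treated ones at every time up to 12 h, and no test passed. At 24 h it had 584, 598, and 646 CPM, above all 3 non-treated libraries (LFC 0.26, SE 0.08, adjusted p = 0.0111 in edgeR), a call that was lost without arsenic 24 h replicate 3 (LFC 0.21, adjusted p = 0.0788) or non-treated 24 h replicate 1 (LFC 0.24, adjusted p = 0.0616). With cadmium, it had 698, 641, and 643 CPM at 12 h (LFC 0.24, adjusted p = 0.0334 from edgeR), and this call was lost when any of 5 of the 6 libraries was dropped, with LFCs from 0.19 (adjusted p = 0.159, without cadmium 12 h replicate 1) to 0.26 (adjusted p = 0.0512, without cadmium 12 h replicate 2); it held only without non-treated 12 h replicate 3. The cadmium call at 12 h was also lost with library totals, no filter on low counts, or only the libraries compared (adjusted p up to 0.191). The arsenic call at 24 h was also lost with no filter or only the libraries compared (adjusted p up to 0.0721). At 24 h of cadmium, the LFC was 0.21 (adjusted p = 0.147), and DESeq2 gave an adjusted p of 0.0308.

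GAS5, named for its accumulation in growth-arrested cells, rose at 24 h of cadmium and of mercury against non-treated cells and did not pass at earlier times. At 24 h the non-treated libraries had 103.8, 94.7, and 107 CPM. The cadmium libraries had 122, 141.6, and 145.9 CPM (LFC 0.42, SE 0.12, adjusted p = 0.0306 in edgeR), and the mercury libraries 136.9, 123.6, and 145.7 CPM (LFC 0.41, SE 0.12, adjusted p = 0.00457 in edgeR). Both groups lay above all non-treated libraries, whereas 1 of the 3 arsenic libraries, at 135.5, 138.6, and 105.8 CPM, fell within their range (LFC 0.31, adjusted p = 0.0587 from edgeR).

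The reference of this comparison itself moved. Non-treated cells had 155.2 ± 7.77 CPM (SD, n = 3) of GAS5 at 1.5 h, 158.0 ± 12.3 (SD, n = 3) at 12 h, and 101.9 ± 6.37 (SD, n = 3) at 24 h, the lowest of the 20 group means, with an LFC of -0.61 between 24 and 1.5 h (SE 0.12, adjusted p = 0.000302 in edgeR). This was the only call among the 9 hosts in the 4 comparisons over time in non-treated cells, where 3.32% of all genes were called at 24 h. The 24 h means with cadmium (136.5 CPM) and mercury (135.4 CPM) were lower than the non-treated means at 1.5 and 12 h. The higher GAS5 level with these metals at 24 h was thus measured against non-treated cells in which GAS5 had fallen. The cadmium call was lost without cadmium 24 h replicate 2 (LFC 0.39, adjusted p = 0.124), cadmium 24 h replicate 3 (0.38, adjusted p = 0.115), non-treated 24 h replicate 1 (0.43, adjusted p = 0.0844), or non-treated 24 h replicate 2 (0.37, adjusted p = 0.16), and with only the libraries compared (adjusted p = 0.142), whereas the mercury call held in every such fit. The mercury LFC of GAS5 was 0.65 higher at 24 h than at 12 h, the only host called in that comparison (adjusted p = 0.0281 from edgeR, 0.632% of all genes), and dropping 1 library at a time lost that call in 8 of 12 cases.

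SNHG16, the host of the SNORD1 family, fell with mercury at 24 h, from 235.6, 231.8, and 238.0 CPM to 187.7, 189.8, and 194.4 CPM. The groups did not overlap, and the LFC was -0.30 (SE 0.09, adjusted p = 0.00969 in edgeR). SNHG16 did not pass in the other metals or at other times, with LFCs between -0.19 and 0.10.

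SNHG1, SNHG5, and SNHG29 did not pass in any metal at any time point in the edgeR fit of all libraries. SNHG1, a host of several box C/D snoRNAs, came closest at 12 h of mercury (LFC -0.34, 95% interval -0.59 to -0.086, adjusted p = 0.0562 from edgeR), where its libraries at 61.6 to 77.3 CPM lay below the non-treated ones at 79.2 to 99.0 CPM. This SNHG1 effect passed under 4 of 7 other settings, namely library totals (adjusted p = 0.0256), a mean of at least 50 counts (0.0413), only the libraries compared (0.0434), and DESeq2 (0.0448). For SNHG5, the host of SNORD50B, the LFC at this point was -0.31 (95% interval -0.56 to -0.066, adjusted p = 0.0727), and it passed only with library totals (adjusted p = 0.0325). SNHG5 at 24 h of mercury (LFC 0.26, adjusted p = 0.108) passed only with a mean of at least 50 counts (adjusted p = 0.048). SNHG29, the host of SNORD49A and SNORD65 and one of the most precisely measured genes of the set, had LFCs between -0.21 (mercury at 6 h, adjusted p = 0.114, and 0.0181 with library totals) and 0.16 (cadmium at 12 h, adjusted p = 0.235), and its 20 group means ranged from 394.9 to 470.5 CPM.

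The metals were then compared with each other at the same time point, at their different doses. Arsenic and cadmium differed in SNHG12 and ZFAS1, with 2 hosts called at 12 h (5.78% of all genes) and 1 at 24 h (10.1%). SNHG12 was lower with arsenic than with cadmium at 24 h by an LFC of -0.88 (SE 0.14, adjusted p = 9.46e-07 in edgeR), which is the largest difference of a host between metals, and at 12 h by -0.50 (adjusted p = 0.0155). The 12 h difference was lost without arsenic 12 h replicate 3 (-0.44, adjusted p = 0.0773), cadmium 12 h replicate 2 (-0.48, adjusted p = 0.0649), or cadmium 12 h replicate 3 (-0.48, adjusted p = 0.0699). ZFAS1 at 12 h differed by -0.24 (adjusted p = 0.0405), a call that held on dropping only 1 of the 6 libraries, with a value of -0.15 (adjusted p = 0.309) without arsenic 12 h replicate 3. This ZFAS1 call was also lost with library totals, no filter on low counts, or only the libraries compared (adjusted p up to 0.234).

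Between arsenic and mercury, ZFAS1 was the only host called in the edgeR fit of all libraries. It was lower with arsenic at 6 h (LFC -0.28, adjusted p = 0.0133, 4.51% of all genes called), at 12 h (-0.25, adjusted p = 0.0243, 6.94%), and at 24 h (-0.38, SE 0.07, adjusted p = 9.73e-05 in edgeR, 11.4%). The 24 h difference held when any library was left out. The 6 h value was lost without arsenic 6 h replicate 1 (-0.27), arsenic 6 h replicate 3 (-0.27), or mercury 6 h replicate 2 (-0.24), and the 12 h value without arsenic 12 h replicate 3 (-0.16) or any of the 3 mercury 12 h libraries (-0.26 to -0.24). With library totals or only the libraries compared the 6 h call was also lost (adjusted p up to 0.109), as was the 12 h call with no filter on low counts (adjusted p = 0.127). For SNHG12 at 24 h, the difference between arsenic and mercury was -0.40 (95% interval -0.68 to -0.12, adjusted p = 0.0515 from edgeR), just outside the threshold, and the libraries of the metals did not overlap. It passed under 5 of 7 other settings (RLE size factors, no filter, a mean of at least 50 counts, only the libraries compared, and DESeq2), with adjusted p from 0.0379 to 0.0448.

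Cadmium and mercury differed in the largest number of hosts, with 1 call at 3 h (1.79% of all genes), 3 at 12 h (3.39%), and 3 at 24 h (19.9%). At 24 h, cadmium left SNHG8 higher than mercury by 0.53 (SE 0.14, adjusted p = 0.00275 in edgeR), SNHG12 higher by 0.48 (adjusted p = 0.00684), and ZFAS1 lower by 0.43 (SE 0.07, adjusted p = 5.5e-06). At 12 h, cadmium libraries were higher for SNHG12 (0.49, adjusted p = 0.0331), SNHG8 (0.48, adjusted p = 0.0292), and SNHG1 (0.43, adjusted p = 0.0424). The SNHG1 call was lost with library totals or no filter on low counts (adjusted p up to 0.0892). SNHG8 was also higher at 3 h (0.49, adjusted p = 0.0318). The SNHG8 and ZFAS1 differences at 24 h held when any library was left out, the SNHG12 difference at 24 h was lost without cadmium 24 h replicate 3 (0.39, adjusted p = 0.0657) or mercury 24 h replicate 2 (0.41, adjusted p = 0.0591), and each call at 3 and 12 h was lost in 4 or 5 of 6 such fits.

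The snoRNAs themselves have no poly(A) tail and are poorly caught by a method that primes on it. Of the 24 snoRNA genes inside the hosts, 14 had 0 counts in all libraries, and the others held 3723 counts in the 60 libraries together, against 18200 for SNHG12 alone. Alignments that hit more than 1 gene were also dropped in counting, which removes reads that overlap a host exon. SNORA44 and SNORD50B, which overlap transcript ends of SNHG12 and SNHG5, were among the genes at 0. The part of the counting rule in these zeros was not tested. SNORA61 and SNORD99, both inside SNHG12, had 2036 and 416 counts. SNORA61 fell as low as 4.99 ± 1.15 CPM (SD, n = 3) at 12 h of arsenic, where non-treated cells had 21.2 ± 5.92 CPM (SD, n = 3), the highest mean of this gene. In the fit of all genes, SNORA61 fell at 12 h of arsenic (LFC -2.08, SE 0.39, adjusted p = 0.000114 in edgeR), and this call held when any library was left out. The 12 h LFC was -1.12 with cadmium (adjusted p = 0.0464), a call lost without cadmium 12 h replicate 2 (-1.04, adjusted p = 0.171) or 3 (-0.92, adjusted p = 0.235) or non-treated 12 h replicate 1 (-1.21, adjusted p = 0.0717) or 2 (-0.87, adjusted p = 0.202), and -0.80 with mercury (adjusted p = 0.121). At the other times SNORA61 did not pass in any metal, and a library held at most 91 counts of it. Over the 20 group means, the level of SNORA61 correlated with that of SNHG12 at r = 0.661 and SNORD99 at r = 0.752, whereas r was -0.104 for SNORA24 and SNHG8, -0.0447 for SNORD49A and SNHG29, and -0.281 for SNORD65 and SNHG29. These are descriptions over groups that share libraries and depth, and reads at these genes may come from unspliced or partly degraded host RNA as well as from the snoRNA, which cannot be told apart in gene counts.

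**Figure D3:**
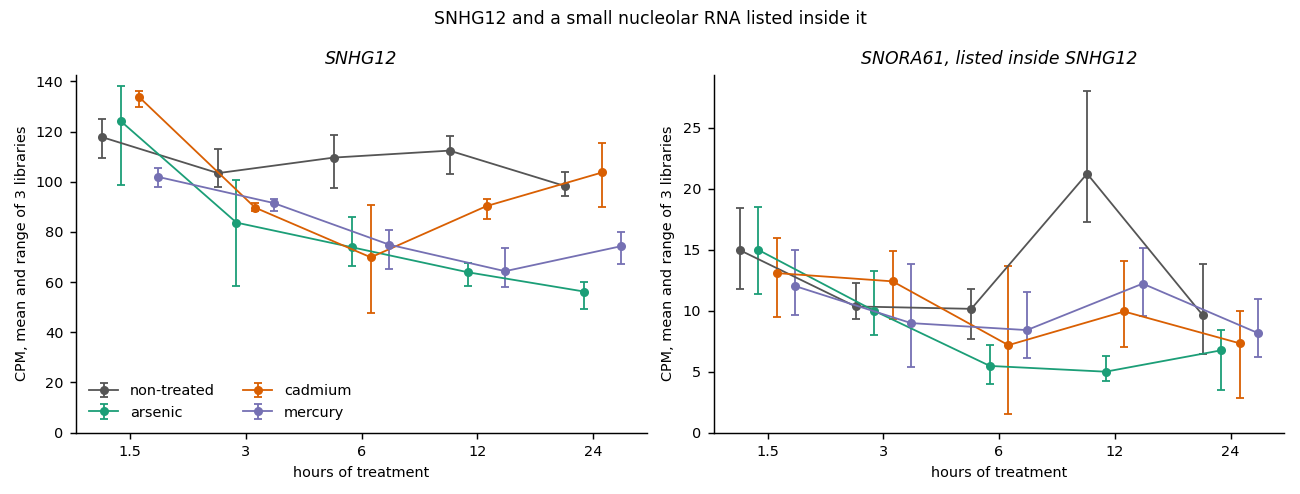
SNHG12 (left) and SNORA61, the snoRNA gene inside it with the most counts (right), in CPM (vertical axes, from 0) by hours of treatment; points are means and bars the range of 3 libraries for each treatment. The means of both genes are lower with arsenic than in non-treated cells at 6 and 12 h, and SNORA61 peaks in non-treated cells at 12 h with a mean of 21.2 CPM.

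The 9 hosts were then compared with each other in their profile over the 20 groups. Of the 36 pairs, 28 had a positive correlation of log2 CPM, with a median r of 0.269. The closest pairs were SNHG8 with SNHG12 (0.70), SNHG8 with SNHG16 (0.693), GAS5 with SNHG5 (0.665), and GAS5 with SNHG15 (0.632). ZFAS1 had a negative r with SNHG16 (-0.519), SNHG8 (-0.411), and SNHG12 (-0.213), and SNHG29 had a negative r with 5 of the other 8 hosts. Within groups, where only the differences between the 3 libraries remain, the median r was 0.227 and the range was -0.483 (SNHG5 and SNHG29) to 0.526 (GAS5 and SNHG12). The points share libraries and depth, and these values carry no test.

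**Figure D4:**
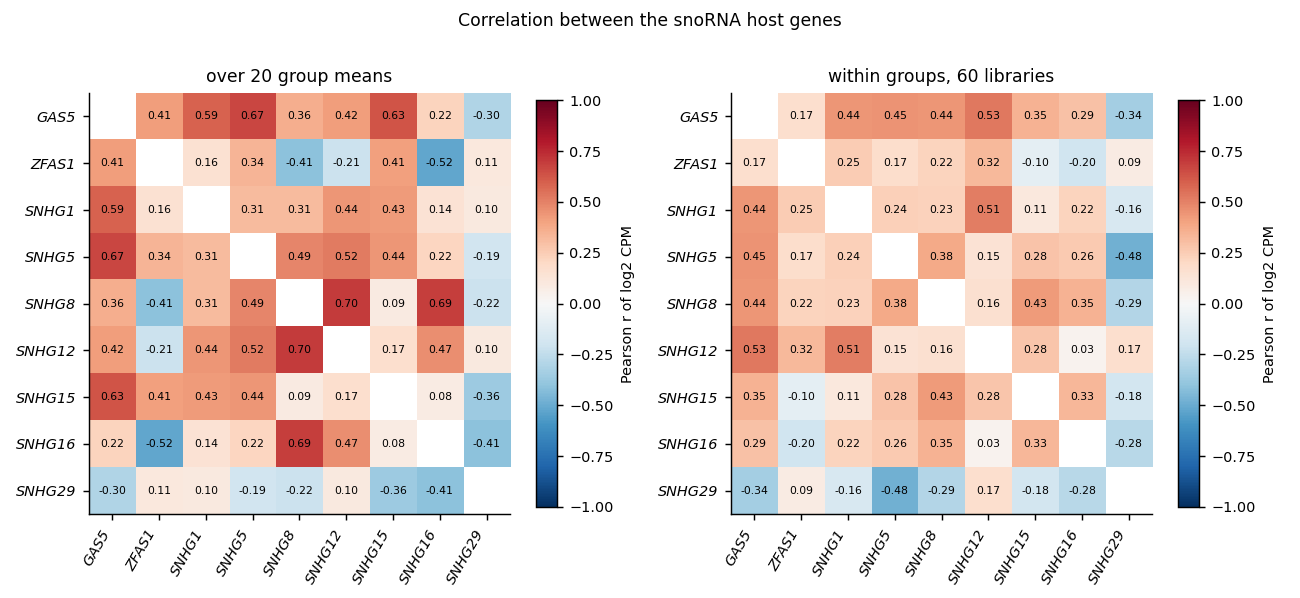
Pearson r of log2 CPM between each pair of hosts, over the means of the 20 groups (left) and within groups over the 60 libraries after the group means were removed (right); red is positive and blue negative on a scale from -1 to 1. GAS5, SNHG1, SNHG5, SNHG8, SNHG12, SNHG15, and SNHG16 form a block of positive values on the left, with SNHG29 negative to 5 of the other 8 hosts.

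The mean profile of the hosts, each centred on its own mean, was most like GAS5 (r = 0.813), SNHG12 (0.784), and SNHG5 (0.774) and least like SNHG29 (-0.122) and ZFAS1 (0.197). Each host is part of this mean, which raises its r, so the hosts cannot be ranked beside other genes. Outside the 9 genes, the profiles closest to the mean profile over the 20 groups were those of CDK5R1 (0.822), which activates the kinase CDK5, SNORA61 (0.762), UBE2Q1 (0.757), the splicing regulator SRSF10 (0.749), SNORD99 (0.741), and the mitochondrial glutamate carrier SLC25A22 (0.741). SNORA61 and SNORD99 lie inside SNHG12, which is part of the mean, and their reads may come from its RNA, so they are not independent of it. The most opposed were ZFP64 (-0.777), the BMP signal transducer SMAD1 (-0.767), and UBTD1 (-0.756). These are the extremes of 12341 genes over 20 points, given as a description.

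Genes around the hosts in the same pathways were counted as whole lists at 24 h. Of 16 tested non-coding hosts outside the 9, 1 fell with arsenic, and 2 rose and 3 fell with mercury, with medians of -0.18 and 0.0077, while 14.3% and 27.6% of all genes were called. SNHG25 fell with mercury at 24 h (LFC -0.97, adjusted p = 0.00333 from edgeR) and 12 h (-1.13, adjusted p = 0.00137), and with arsenic at 12 h (-0.84, adjusted p = 0.0389). Of 53 protein-coding snoRNA hosts, 2 rose and 9 fell with arsenic, 1 rose and 1 fell with cadmium, and 7 rose and 7 fell with mercury, beside 14.3%, 2.24%, and 27.6% of all genes called in either direction. This list overlaps that of the ribosomal protein genes below, with RPL7A among the genes in both, so their counts are not separate. The heat shock protein genes HSPA9 (LFC 0.59 with arsenic, 0.29 with cadmium, 1.04 with mercury) and HSPA8 (0.60 with arsenic and 0.92 with mercury) were among those that rose, with adjusted p from 8.13e-21 to 0.0279 in edgeR. Of 82 ribosomal protein genes, many of which are translated under the control of the same pyrimidine tract, 4 rose and 8 fell with arsenic, 1 fell with cadmium, and 1 rose and 11 fell with mercury, with medians between -0.11 and -0.010. Beside these counts, 14.3% of all genes were called with arsenic, 2.24% with cadmium, and 27.6% with mercury in either direction. In non-treated cells alone, 47 of these 82 genes were higher at 12 h than at 1.5 h (median LFC 0.30, 3.90% of all genes called).

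The decay pathway was represented by its factors and by mRNAs described as its targets. Of 19 decay factor genes, 2 fell with arsenic, and 2 rose and 1 fell with mercury, with medians of 0.013 and 0.049, and these shares lay below those of all genes (14.3% with arsenic and 27.6% with mercury). RBM8A, a component of the exon junction complex, fell with arsenic (LFC -0.38, adjusted p = 0.00996 from edgeR) and mercury (-0.45, adjusted p = 0.000743), and ETF1, the release factor that recognizes stop codons, rose with mercury (0.39, adjusted p = 0.000454). Of 16 mRNAs described as decay targets, 5 rose and 2 fell with arsenic, 4 rose with cadmium, and 7 rose and 1 fell with mercury, beside 14.3%, 2.24%, and 27.6% of all genes called in either direction. Those with the largest changes were the stress transcription factor genes ATF3 (LFC 1.08, 2.12, and 3.74 with arsenic, cadmium, and mercury) and DDIT3 (2.13, 1.47, and 2.55) and the growth-arrest gene GADD45A (1.04, 0.84, and 1.89), all with adjusted p of at most 0.0113 in edgeR. These genes are also known to be transcribed in response to stress.

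The outputs of the integrated stress response, in which phosphorylation of eIF2 lowers translation and ATF4 drives transcription, rose together with arsenic and mercury, and in part with cadmium. All 13 tested genes of this list rose with 24 h of arsenic and of mercury, and 5 rose with cadmium. Of all genes, 14.3% were called with arsenic, 27.6% with mercury, and 2.24% with cadmium in either direction. Its median LFC under arsenic was 1.71, under cadmium 0.58, and under mercury 2.23, against medians of -0.04, 0.09, and 0.21 for the 9 hosts in the same libraries. CHAC1, which degrades glutathione, had LFCs of 3.11 with arsenic and 3.06 with mercury (adjusted p of 1.13e-13 and 1.06e-13 in edgeR) and 0.97 with cadmium (adjusted p = 0.181), and SESN2, which restrains growth signalling, had 2.39, 1.37, and 2.78 (adjusted p of at most 1.91e-09). The host changes, all within an LFC of 1 in either direction, thus stood beside medians of this response above 1 with arsenic and mercury. With cadmium the median of the response, 0.58, also lay within an LFC of 1. Within the 9 genes, rises and falls occurred in the same libraries.

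**Figure D5:**
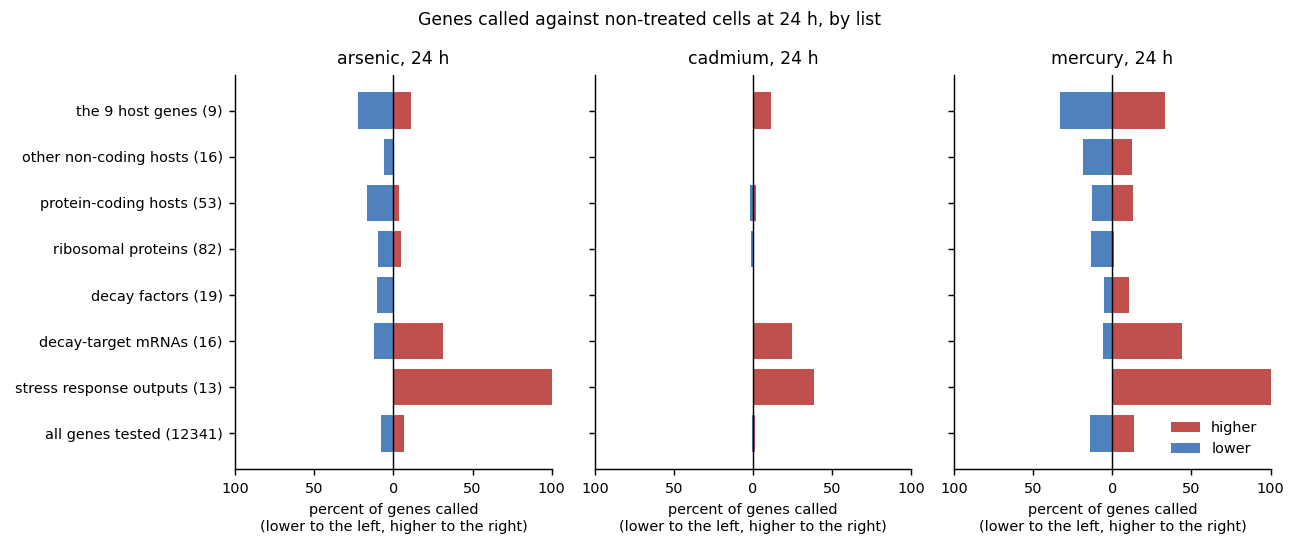
Share of the tested genes of each list that passed an adjusted p of 0.05 at 24 h, higher to the right and lower to the left of 0 (horizontal axis, percent), for arsenic, cadmium, and mercury, with the number of tested genes in brackets and all 12341 genes at the bottom. The lists of protein-coding hosts and ribosomal proteins overlap. The outputs of the stress response reach 13 of 13 genes higher with arsenic and mercury, whereas the 9 hosts are split, with 3 higher and 3 lower with mercury.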

How the data were processed

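Total RNA of 60 samples was sequenced from the 3′ end with 100-base single-end reads. Reads were mapped by the authors with STAR 2.7.9a on GRCh38. They counted alignments on exons of the GENCODE 43 basic annotation strand-specifically in Union mode, in which alignments that hit more than 1 gene are dropped, and deposited raw counts per gene. The table had 62703 genes and 92 spike-ins, which were at 0. Libraries held 2215276 to 4404609 counts, and 3 counts equal 0.680 to 1.36 CPM on the TMM scale; such floors cover counting error only.

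From the deposited counts, all 60 libraries were fitted with 1 coefficient per group in edgeR 4.0.16 (R 4.3.3): filterByExpr (minimum count 10, minimum total 15), TMM, robust quasi-likelihood test, Benjamini-Hochberg within each of 37 comparisons (15 of a metal with non-treated, 15 between metals, 4 over time in non-treated cells, 3 of the 24 h effect minus the 12 h effect). Effects with an adjusted p under 0.05 were called. The script was tested on simulated data. Alternatives were RLE size factors, library totals, no filter, a mean of at least 50 counts, DESeq2 1.42.0, a replicate block, only the libraries compared, an LFC past 1, and each library left out. Libraries that share a replicate number did not deviate together (median correlation -0.0080, 45 pairs) and were treated as unpaired. Within groups, no libraries were copies (lowest chi-square per degree of freedom 2.02), and pairs across groups were not checked.

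The 9 genes, the lists, and the naming rule (all 9 genes; of each other list, up to 3 tested genes with the largest mean change over metals at 24 h; for likeness, the 6 highest and 3 lowest r) were chosen with earlier results of these data known; the tests of SNORA61 and MAP2 under the alternatives were added after seeing the data. Promoter letters are from RefSeq (GRCh38.p14), and transcripts from GENCODE 44, where the 9 genes have the same coordinates.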

Additional observations from a re-analysis of the deposited data

Results flagged for a closer look

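One effect differed between time points by its own test. The mercury LFC of GAS5 was -0.24 at 12 h and 0.41 at 24 h, a difference of 0.65 (standard error 0.16, adjusted p = 0.0281 from edgeR's quasi-likelihood test with Benjamini-Hochberg adjustment), and 0.632% of all genes passed this comparison. Non-treated cells had 158.0 CPM at 12 h and 101.9 CPM at 24 h, while the mercury means were 133.6 and 135.4 CPM, a change of the mercury mean that is smaller than its spread (SD 5.83 and 11.1 CPM, n = 3). Dropping 1 library at a time lost the call in 8 of 12 cases: without mercury 12 h replicate 1 (0.66) or 3 (0.62), mercury 24 h replicate 1 (0.64) or 3 (0.60), non-treated 12 h replicate 1 (0.60) or 2 (0.69), or non-treated 24 h replicate 1 (0.67) or 2 (0.60), with adjusted p from 0.0514 to 0.102. For arsenic, the same difference was 0.55 (adjusted p = 0.0544).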

How the results depend on the processing

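Of the 35 effects called for the hosts over all comparisons, 27 were called under all 7 other settings of scaling, filter, block, library choice, and tool, 16 with each library left out in turn, and 16 under both, and 17 further effects were called under another setting only. No value reversed, and other scalings moved the median of all genes by at most 0.0858. With a replicate block, 35 effects were called, and all 35 were those of the fit without it, so the block changed no call. Counts of called hosts moved past 1.5 times in these cases: cadmium against non-treated was 1 with only the libraries compared in place of 3, arsenic against mercury was 5 with a mean of at least 50 counts and with DESeq2 in place of 3, non-treated times were 2 with only the libraries compared in place of 1, and the 24 h minus 12 h count was 2 with RLE, 3 with library totals, 3 with a mean of at least 50 counts, and 4 with DESeq2 in place of 1. Past an LFC of 1, all 8 counts were 0. With 1 library left out, the counts ranged from 4 to 7 for arsenic, 2 to 3 for cadmium, 10 to 13 for mercury, 1 to 4 for arsenic against cadmium, 2 to 5 for arsenic against mercury, 4 to 9 for cadmium against mercury, 1 to 1 for non-treated times, and 0 to 3 for 24 h minus 12 h. The cause of these shifts was not tested. Depth limits SNHG15 (25 to 97 counts) most.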

Other observations

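Over the 20 group means, the highest r of a host with any other gene reached 0.913 for ZFAS1 with the magnesium transporter gene CNNM4, 0.891 for SNHG16 with the mitochondrial protease gene AFG3L2, 0.888 for SNHG8 with the DNA repair gene APEX2, and 0.846 for SNHG12 with SNRPD1, a core protein of the spliceosome. These partners were named after their values were seen; they are the largest values out of 12341 genes over 20 points and carry no test.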
